A study of Homo sapiens with 8 samples.

Results

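The genes described here are 37 of the 26475 gene symbols in the deposited count table, chosen by name for their parts in antioxidant defence, the NRF2 response, iron storage and ferroptosis. Their expression was compared between BT474 cells labelled NPY1R high (4 libraries) and NPY1R low (4 libraries). BT474 is a long-established line from a human breast tumour that carries amplified ERBB2, and NPY1R encodes the Y1 receptor for neuropeptide Y. The series title places the libraries in a study of persister cells surviving lapatinib, which blocks the EGFR and ERBB2 kinases. No drug is named for these libraries, and the labels do not say how high and low cells were obtained or whether the libraries came from separate cultures, so p-values measure the spread between these libraries, which may be technical. All 8 libraries are of the same line, and per the labels' protocols cells were grown below confluence on plates.

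Cells remove hydrogen peroxide and lipid peroxides with glutathione peroxidases, which spend glutathione, and with peroxiredoxins, which spend thioredoxin. Both carriers are recharged with NADPH. The transcription factor NRF2, encoded by NFE2L2, raises many of these genes when its repressor KEAP1 releases it, by binding antioxidant response elements near their start sites. Ferroptosis is a form of cell death driven by iron and peroxidised membrane lipids. GPX4 and AIFM2 hold it back, and ACSL4 favours it by loading polyunsaturated fatty acids into phospholipids. Drug-tolerant persister cells of several tumour types are known to depend on GPX4.

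Antioxidant response elements share the core letters TGACNNNGC, which read GCNNNGTCA on the opposite strand. Both strands were searched in RefSeq promoter windows of GRCh38.p14, each with 250 bases before and 50 bases after a start site. Windows were found for 30 of the 37 genes, and 9 of these genes had a match. Of the 42 member windows 10 held a match (23.8%), against 13.3% of 35116 windows of all genes. The share was 14.5% for windows of the genes tested for expression. For 110 windows of other genes of these pathways, listed further below, it was 13.6%. The sequences below are those of 2 genes past the threshold (GPX2, TXNRD1), of KEAP1, of GCLM as a classical NRF2 target, of the ferroptosis suppressor AIFM2 and of GSTP1, which had almost no counts, with the core in capitals, 5′ to 3′ on the gene's strand and ending at the start site where that comes first. A match is a description of letters and not a measured binding site.
GPX2, chr14:64942843-64942883, minus strand, core from base -122: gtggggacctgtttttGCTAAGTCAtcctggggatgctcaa
TXNRD1, upstream start, chr12:104215664-104215704, plus strand, core from base -99: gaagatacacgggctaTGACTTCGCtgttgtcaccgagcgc
TXNRD1, downstream start, chr12:104286914-104286954, plus strand, core from base -102: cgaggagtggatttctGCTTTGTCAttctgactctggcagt
GCLM, chr1:93909440-93909480, minus strand, core from base -34: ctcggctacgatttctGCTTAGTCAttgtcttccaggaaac
AIFM2, chr10:70132826-70132863, minus strand, core from base -22: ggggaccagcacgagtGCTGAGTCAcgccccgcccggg
GSTP1, chr11:67583730-67583770, plus strand, core from base -66: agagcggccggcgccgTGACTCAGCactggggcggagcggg
KEAP1, chr19:10502778-10502818, minus strand, core from base -31: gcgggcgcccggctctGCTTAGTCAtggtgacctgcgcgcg
KEAP1, chr19:10502801-10502841, minus strand, core from base -54: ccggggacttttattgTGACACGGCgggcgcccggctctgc
The other genes with a match were MGST1, NCOA4 and PGD. Both KEAP1 matches lay in the window of a downstream start (chr19:10502722-10503021). The window of the upstream KEAP1 start (chr19:10503307-10503606) held no match. The SRXN1 and NQO1 windows held no match, and sequence farther upstream was not searched.

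Total expected counts per library ranged from 18025648 to 30609791. NPY1R spanned 699.2 to 1049 CPM (counts scaled per library by TMM and expressed as CPM) in NPY1R high, against 90.8 to 103.7 CPM in NPY1R low, so the labels and the gene go together in every library. Markers of luminal epithelium (9 genes) summed to 7448 to 8538 CPM in NPY1R high, against 7350 to 9577 CPM for NPY1R low. Within this list ESR1 (log2 change 0.59, edgeR adjusted p 7.23e-05) and GATA3 (0.60, 0.00616) were higher in NPY1R high, and EPCAM (-0.30, 0.00436) and FOXA1 (-0.23, 0.00891) were lower. The part of these changes in the results was not tested. The 5 leukocyte markers summed to at most 1.19 CPM, with 2 of 5 at 0 counts in every library. Sums were 4.76 to 8.98 CPM for the 4 basal markers, nearly all from TP63, 10.4 to 17.5 CPM for the 5 fibroblast markers, of which COL1A1 was the only one tested, and 9.22 to 18.2 CPM for the 3 endothelial markers, nearly all from VWF. In bulk RNA, fewer cells expressing a gene and less RNA per cell cannot be told apart.

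Most antioxidant and ferroptosis defence genes had small changes between the groups. Of the 37 genes, 35 passed the filter on low counts. In edgeR's quasi-likelihood test, 3 of the 35 passed a Benjamini-Hochberg adjusted p of 0.05 (8.57%), against 13.6% of all 14008 tested genes. TXNRD1 was higher in NPY1R high, a direction found for 5.78% of all genes. GPX2 and SRXN1 were lower, a direction found for 7.81% of all genes. The median log2 change (NPY1R high over low) was -0.07 over the 35 genes and -0.03 over all tested genes. TMM scaling took NPY1R low replicate 4 as its reference library. With the other libraries as reference the medians ran from -0.039 to -0.026 over the members and from -0.003 to 0.011 over all genes. In the main fit the change lay within 0.2 on the log2 scale for 29 of the 35. Of the 32 genes that did not pass, 27 had a 95% interval lying wholly inside a 1.5-fold change in either direction, and 20 lay inside a 1.25-fold change. These counts of small changes are not given for all tested genes, so they do not set the members apart. CPM values did not overlap between the groups for 5 of the 35, against 20.2% of all tested genes.

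**Figure D1:**
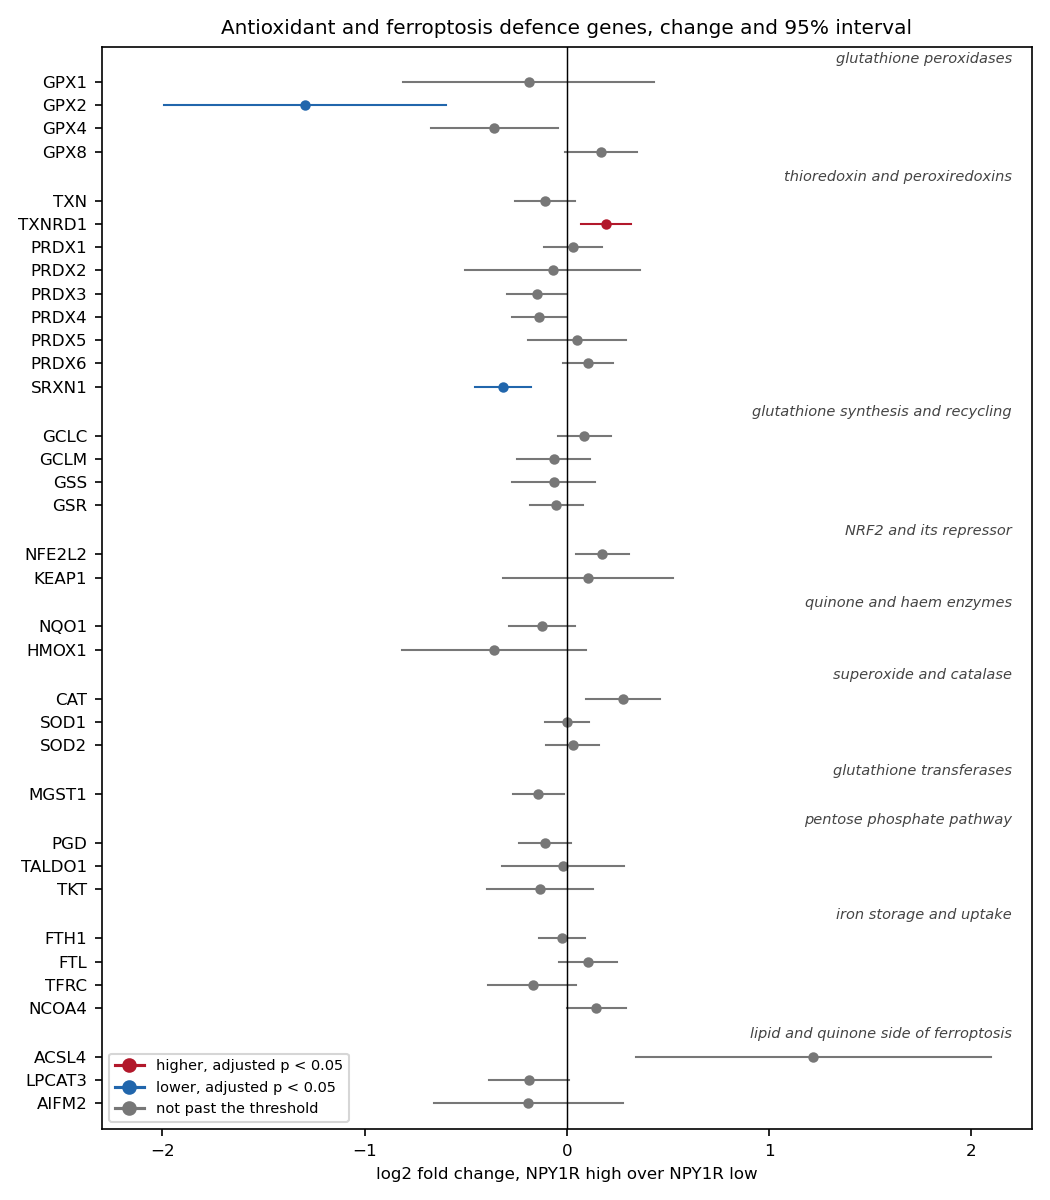
Log2 fold change (NPY1R high over NPY1R low, x axis) of the 35 tested genes with 95% intervals as lines, grouped by role, with red for genes higher, blue for genes lower and grey for genes not past an adjusted p of 0.05. Only TXNRD1 is red and only GPX2 and SRXN1 are blue, and 29 of the 35 points lie within 0.2 of 0.

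Leaving out both NPY1R high replicate 3 and NPY1R low replicate 4, the libraries with the strongest negative trends with transcript GC content, gave 2 genes higher and 3 lower (14.3% of 35, against 13.7% of all genes tested in that fit). With each library's GC trend removed, 4 were higher and 5 lower (25.7% of 35, against 21.1% of all genes). The share of members called was below that of all genes in the main fit (8.57% against 13.6%). Among fits without a GC correction it also fell on either side of the share of all genes. With the TMM reference NPY1R high 3 it was 5.71% against 12.5%, and with NPY1R low 1 it was 14.3% against 13.3%. These shares rest on few genes and do not set the members apart. The 3 calls were kept without both libraries and with the GC trend removed. Those added by removing the GC trend were CAT (edgeR adjusted p 0.0198), ACSL4 (0.0295) and NFE2L2 (0.0455), all higher, and GPX4 (0.00787), MGST1 (0.0185) and PRDX3 (0.0313), all lower.

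Per kilobase of the longest coding transcript, averaged over all 8 libraries, FTH1 had the highest level of the 37 genes at 877.1 CPM per kilobase. FTL (425.7), PRDX1 (419.1) and TFRC (249.1) came next on this scale. PRDX5 (234.9) and SOD1 (234.5) followed. HMOX1 (0.824) and ACSL4 (0.458) were the lowest of the tested genes. GPX2 had 1.02 CPM per kilobase, so the largest relative changes, in GPX2 and ACSL4, were in genes of low level.

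Glutathione peroxidases spanned from the abundant GPX4 and GPX1 to genes with few counts. GPX2, a hydrogen peroxide-reducing enzyme best known from the gut lining, was the only one of the 4 tested peroxidases to pass (25.0%, against 13.6% of all tested genes). It had 22, 20, 15 and 9 counts in NPY1R high replicates 1 to 4 and 51, 67, 20 and 33 counts in NPY1R low replicates 1 to 4. In CPM these were 0.756, 0.744, 0.543 and 0.496 against 1.71, 2.35, 0.915 and 1.296. Every NPY1R high library lay below every NPY1R low library, but all 8 levels were low. GPX2 fell from 1.57 ± 0.613 to 0.634 ± 0.135 CPM (SD, n = 4 each) (log2 ratio -1.29, SE 0.31, edgeR adjusted p = 0.0208). The change was -1.33 within replicates 1 and 2 and -0.97 within replicates 3 and 4. Its call was lost without NPY1R high replicate 3 (adjusted p 0.0658), NPY1R high replicate 4 (0.0715) or NPY1R low replicate 1 (0.0598), and a filter of 10 counts in every library left it untested.

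GPX4, which reduces lipid peroxides in membranes and is the main brake on ferroptosis, did not pass. Its CPM was 69.5, 60.0, 54.4 and 61.7 in NPY1R high replicates 1 to 4 and 90.7, 91.8, 74.9 and 57.4 in NPY1R low replicates 1 to 4. NPY1R low replicate 4 lay among the NPY1R high libraries, and the other NPY1R low libraries lay above all of them. The log2 change was -0.36 (SE 0.14, 95% interval -0.67 to -0.04), at an edgeR adjusted p of 0.135. Without NPY1R low replicate 4 it was -0.45 (adjusted p 0.00663), and with the GC trend removed it was -0.33 (adjusted p 0.00787).

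GPX1, the cytosolic peroxidase, ranged from 37.4 to 55.6 CPM for NPY1R high and from 26.8 to 74.7 CPM in NPY1R low, and its interval of -0.81 to 0.43 was among the widest. GPX8, an endoplasmic reticulum peroxidase, had a log2 change of 0.17 (SE 0.08) that did not pass. GPX3, the plasma peroxidase, had 2 to 9 counts per library and was not tested.

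In the thioredoxin system, the 2 members that passed, of 9 tested (22.2%, against 13.6% of all tested genes), moved in opposite directions. SRXN1, sulfiredoxin, restores peroxiredoxins that have been over-oxidised. Its CPM was 46.1, 47.1, 48.0 and 43.4 in NPY1R high replicates 1 to 4 and 60.6, 57.5, 53.2 and 58.2 in NPY1R low replicates 1 to 4. No library overlapped the other group. SRXN1 fell by 1.24-fold, from 57.4 ± 3.11 to 46.2 ± 1.96 CPM (SD, n = 4 in both groups) (log2 ratio -0.31, SE 0.06, edgeR adjusted p = 0.0078). The change was -0.34 within replicates 1 and 2 and -0.28 within replicates 3 and 4. Without NPY1R low replicate 1 the adjusted p was 0.0535.

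TXNRD1, the cytosolic thioredoxin reductase, had 199.6, 206.5, 222.9 and 208.2 CPM in NPY1R high replicates 1 to 4. It had 175.1, 180.1, 181.3 and 196.0 CPM in NPY1R low replicates 1 to 4. The lowest NPY1R high library stood just above the highest NPY1R low library. TXNRD1 rose by 1.14-fold, from 183.1 ± 8.99 to 209.3 ± 9.77 CPM (SD, n = 4 in both groups) (log2 ratio 0.19, SE 0.06, edgeR adjusted p = 0.0443). The difference was 0.19 in both replicate subsets. The call was lost on leaving out any library except NPY1R low replicate 4 (7 of 8 cases, edgeR adjusted p of 0.0583 to 0.114), and with NPY1R high replicate 3 (0.0524) or 4 (0.0509) as the TMM reference.

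The other members of the thioredoxin system did not pass. TXN, thioredoxin itself, had a log2 change of -0.11 (SE 0.07). The 6 peroxiredoxins ranged from -0.15 for PRDX3, the mitochondrial form, to 0.10 for PRDX6, which also acts on phospholipid peroxides. PRDX1 was the most abundant peroxiredoxin per kilobase and averaged 522.7 ± 28.4 CPM (SD, n = 4) across NPY1R high libraries, against 511.7 ± 35.5 CPM (SD, n = 4) across NPY1R low libraries. PRDX4 of the endoplasmic reticulum changed by -0.14 (SE 0.06), PRDX2 by -0.07 (SE 0.19) and PRDX5 by 0.05 (SE 0.11). PRDX2 and PRDX5 had the wider spread, which in both came from NPY1R low, where PRDX2 ranged from 137.4 to 268.7 CPM and PRDX5 from 159.4 to 236.1 CPM.

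**Figure D2:**
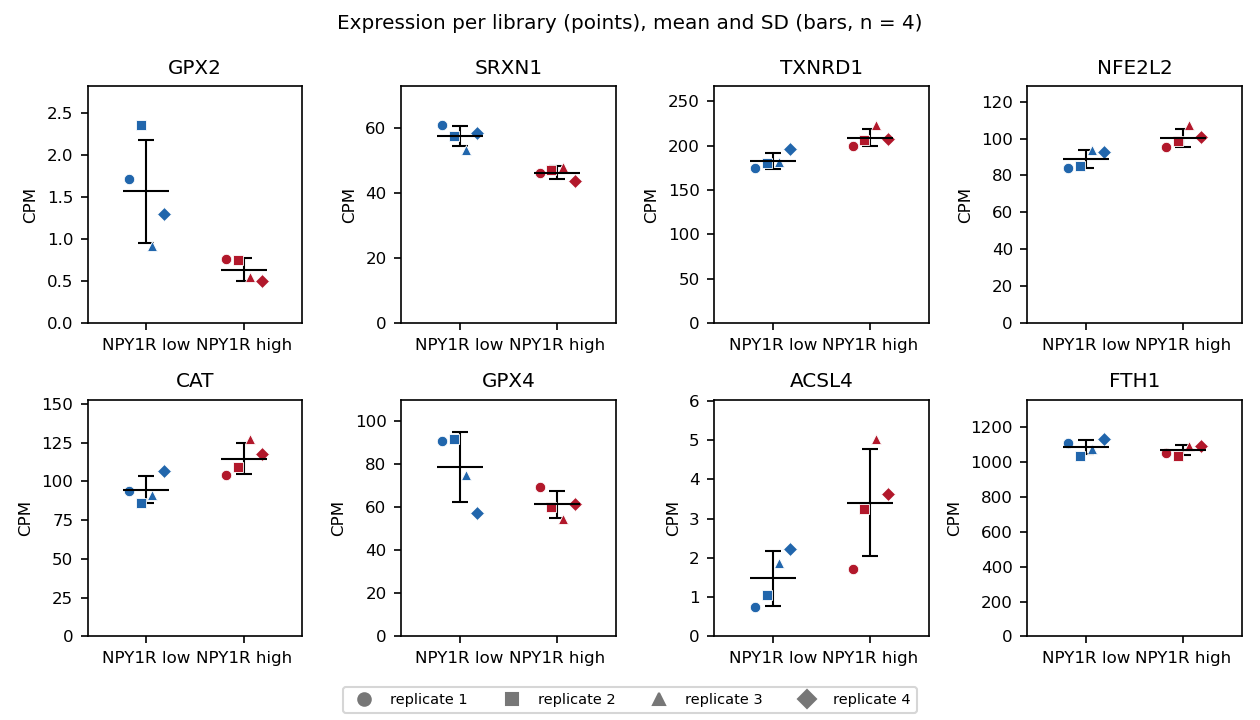
CPM per library (y axis, from 0) of 8 genes in NPY1R low (blue) and NPY1R high (red), with a marker shape for each replicate number and bars for mean and SD (n = 4). GPX2 and SRXN1 lie wholly below and TXNRD1 and NFE2L2 wholly above the NPY1R low libraries in NPY1R high, while GPX4, CAT, ACSL4 and FTH1 overlap.

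NFE2L2, the gene for NRF2, had 95.2, 98.6, 107.1 and 100.6 CPM in NPY1R high replicates 1 to 4. It had 84.2, 85.0, 93.8 and 92.7 CPM in NPY1R low replicates 1 to 4, so the groups did not overlap. The log2 change of 0.18 (SE 0.06) reached an edgeR adjusted p of 0.085 and did not pass, although it was under 0.05 in 7 of 27 alternatives. KEAP1, which marks NRF2 for degradation, had 64.5, 63.1, 47.0 and 47.9 CPM in NPY1R high replicates 1 to 4 and 59.5, 66.1, 46.4 and 35.3 CPM in NPY1R low replicates 1 to 4. Replicates 3 and 4 were lower than replicates 1 and 2 in both groups, and the log2 change of KEAP1 was 0.10 (SE 0.19, 95% interval -0.32 to 0.52). NRF2 is controlled largely through its protein, which these counts do not measure.

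NQO1, a quinone reductase widely used as a readout of NRF2, had 241.8, 234.9, 241.9 and 218.6 CPM in NPY1R high replicates 1 to 4. In NPY1R low replicates 1 to 4 it had 266.6, 274.9, 219.7 and 259.9 CPM. The groups overlapped, and the log2 change of NQO1 was -0.12 (SE 0.07), at an edgeR adjusted p of 0.339. HMOX1, which breaks down haem and releases iron, was low at 1.20 to 2.15 CPM and had a log2 change of -0.36 (SE 0.20) that did not pass.

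None of the 4 genes of glutathione synthesis and recycling passed, against 13.6% of all tested genes, and all 4 intervals lay inside a 1.25-fold change. GCLC and GCLM, the catalytic and modifier subunits of the enzyme that limits glutathione synthesis, had log2 changes of 0.09 (SE 0.06) and -0.07 (SE 0.08). GSS, which completes the tripeptide, had -0.07 (SE 0.09), and GSR, which recycles it, had -0.05 (SE 0.06). Of the glutathione transferases, MGST1 of microsomal membranes ranged from 256.2 to 292.7 CPM for NPY1R high and from 295.2 to 317.8 CPM in NPY1R low. These ranges did not overlap, but the change of -0.14 (SE 0.06) reached an edgeR adjusted p of 0.145. GSTP1 gave 0, 1 or 2 counts per library, so no comparison was possible at this depth. A count of 0 allows up to 3 counts.

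CAT, catalase of the peroxisome, had 104.3, 109.3, 127.3 and 117.4 CPM in NPY1R high replicates 1 to 4. In NPY1R low replicates 1 to 4 it had 94.1, 86.1, 91.2 and 106.8 CPM. Only NPY1R low replicate 4 reached into the NPY1R high range. The log2 change of CAT was 0.28 (SE 0.08), at an edgeR adjusted p of 0.0528, just short of the threshold. It was under 0.05 in 17 of 27 alternatives, with 0.00929 without NPY1R low replicate 4. The superoxide dismutases SOD1 of the cytosol and SOD2 of mitochondria stayed close to equal, with log2 changes of -0.00 (SE 0.05) and 0.03 (SE 0.06), both inside a 1.25-fold change.

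The pentose phosphate enzymes, which supply NADPH or connect that route with glycolysis, did not pass either. PGD had a log2 change of -0.11 (SE 0.06), TALDO1 of -0.02 (SE 0.14) and TKT of -0.13 (SE 0.12). PGD was tight in NPY1R high, at 141.8 to 148.8 CPM, and TALDO1 ranged from 61.0 to 96.5 CPM in NPY1R low.

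None of the 4 iron storage and uptake genes passed, against 13.6% of all tested genes. FTH1, the ferritin heavy chain that oxidises iron for storage, had 1054, 1035, 1091 and 1094 CPM in NPY1R high replicates 1 to 4 and 1108, 1035, 1073 and 1133 CPM in NPY1R low replicates 1 to 4. Its log2 change was -0.03 (SE 0.05, 95% interval -0.14 to 0.09), and its sign changed with the scaling of libraries. FTH1 counts were not whole numbers in any of the 8 libraries, a sign that reads were shared out between this gene and similar sequences, so its level is uncertain. FTL, the light chain, had 0.10 (SE 0.06). TFRC, the transferrin receptor that brings iron in, ranged from 1126 to 1300 CPM for NPY1R high and 1159 to 1582 CPM in NPY1R low, with a log2 change of -0.17 (SE 0.10). NCOA4, the receptor that sends ferritin to lysosomes, had 0.14 (SE 0.06) and an edgeR adjusted p of 0.191, or 0.049 without NPY1R high replicate 4.

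The lipid side of ferroptosis held the largest positive change among the 35 genes. ACSL4 had 1.72, 3.24, 5.03 and 3.63 CPM in NPY1R high replicates 1 to 4 and 0.738, 1.05, 1.88 and 2.24 CPM in NPY1R low replicates 1 to 4. The groups overlapped, because NPY1R high replicate 1 lay below NPY1R low replicates 3 and 4. The log2 change of ACSL4 was 1.22 (SE 0.39, 95% interval 0.34 to 2.10), at an edgeR adjusted p of 0.0712. It was under 0.05 in 7 of 27 alternatives, with 0.0315 without NPY1R high replicate 1 and 0.0243 without NPY1R low replicate 4. LPCAT3, which inserts polyunsaturated chains into phospholipids, had -0.19 (SE 0.09), and AIFM2, which reduces coenzyme Q at the membrane, had -0.19 (SE 0.21) with an interval of -0.66 to 0.28.

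In 5 of the 8 libraries the deviation from the group went with the GC content of the transcripts. In NPY1R low replicate 4, GPX1 lay 1.07 below the mean of the other 3 libraries on the log2 CPM scale, PRDX2 0.80 below, AIFM2 0.71 below, KEAP1 0.68 below and GPX4 0.57 below, all with a transcript GC content of at least 56.1%. ACSL4, at 37.4% GC, lay 0.93 above. Across the 35 genes Spearman's rho between deviation and GC content was -0.789 in NPY1R low replicate 4 and -0.804 in NPY1R high replicate 3, 0.804 and 0.694 in NPY1R low replicates 1 and 2, and 0.738 in NPY1R high replicate 1. It was weaker in NPY1R low replicate 3 (-0.407), NPY1R high replicate 2 (0.192) and NPY1R high replicate 4 (-0.117). Over 13179 genes with a GC value the first 5 coefficients were -0.646, -0.507, 0.563, 0.494 and 0.491, and the last 3 were -0.077, 0.015 and 0.168. These points share a library, and each deviation is taken from libraries of the same group, so the coefficients are descriptions. SRXN1 (53.6% GC) and TXNRD1 (44.8% GC) deviated by at most 0.15 in any library. GPX2 (54.3% GC), the other gene past the threshold, deviated by 0.849 in NPY1R low replicate 2 and by -0.869 in NPY1R low replicate 3.

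**Figure D3:**
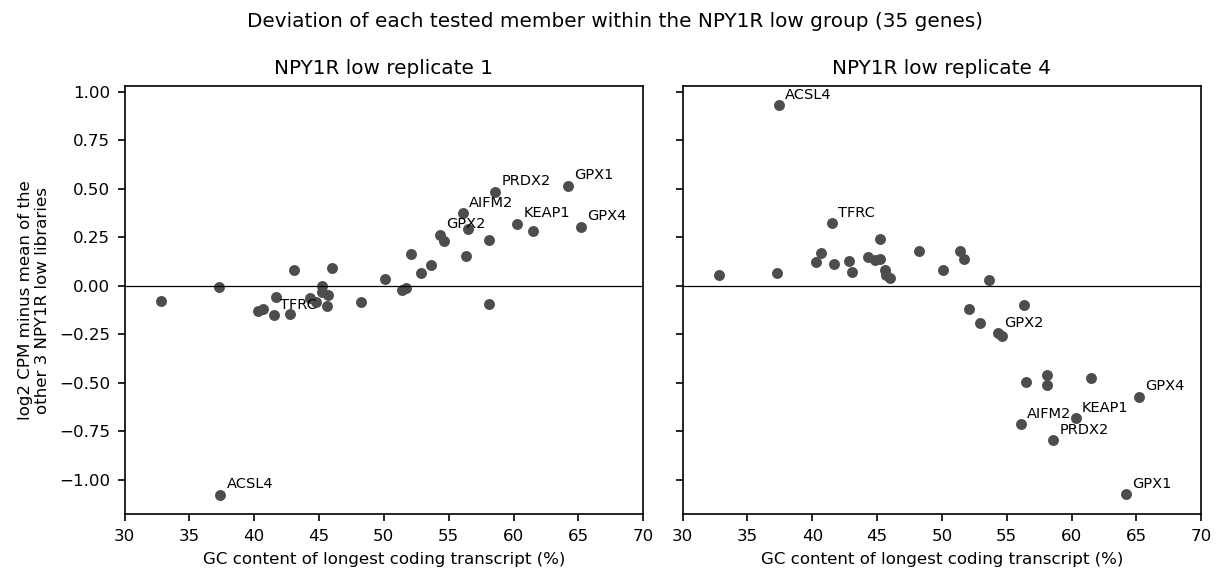
Deviation of each of 35 genes in 1 library from the mean of the other 3 NPY1R low libraries (y axis, log2 CPM) against the GC content of its longest coding transcript (x axis, percent), for NPY1R low replicates 1 and 4. Points rise with GC content in replicate 1 (rho 0.804) and fall in replicate 4 (rho -0.789), with ACSL4 and GPX1 at the ends.

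A list of 100 other genes of these pathways was read in the same fit, and 83 were tested. In NPY1R high 10 of these passed as higher and 10 as lower (24.1%, against 13.6% of all tested genes), with a median log2 change of -0.06. Their CPM did not overlap between the groups for 19 of the 83 (22.9%, against 20.2% of all tested genes). The list was written with earlier results of these data known, so its share is a description.

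Iron export and transport genes were among those that rose. SLC40A1, ferroportin, the iron exporter, rose from 128.1 ± 6.65 to 181.4 ± 19.2 CPM (SD, n = 4 each) (log2 ratio 0.50, SE 0.08, edgeR adjusted p = 0.00197). SLC39A8, a metal importer, rose by 0.50 (SE 0.09) and CISD1, an iron-sulfur protein of the outer mitochondrial membrane, by 0.35 (SE 0.09). These were 3 higher and 0 lower of 11 tested genes of iron handling (27.3%), beside 5.78% of all genes higher and 7.81% lower. The CISD1 call was lost without NPY1R high replicate 1 (edgeR adjusted p 0.0652), NPY1R high replicate 2 (0.0751) or NPY1R low replicate 3 (0.0786), and the SLC40A1 and SLC39A8 calls held in all 27 alternatives.

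Of 16 tested genes of cystine uptake and glutathione use, 4 rose and 0 fell (25.0%, against 5.78% of all genes higher and 7.81% lower). GSTM3, a glutathione transferase, rose by 0.45 (SE 0.07), ABCC2, an exporter of glutathione conjugates, by 0.40 (SE 0.09) and GLRX, glutaredoxin, by 0.71 (SE 0.20) at 29 to 75 counts per library. The other was MGST3 (0.25, SE 0.06), which is named after its values were seen. GLRX kept its call without NPY1R high replicate 4 but lost it on leaving out any other library (edgeR adjusted p 0.0571 to 0.111), and MGST3 lost it without NPY1R high replicate 2 (0.0759), NPY1R low replicate 2 (0.0634) or NPY1R low replicate 3 (0.0751). SLC7A11, the cystine carrier that feeds glutathione synthesis, had 6.80, 8.52, 6.69 and 8.48 CPM in NPY1R high replicates 1 to 4 and 7.65, 8.79, 14.7 and 13.7 CPM in NPY1R low replicates 1 to 4. NPY1R low replicates 3 and 4 stood above the rest. The log2 change of SLC7A11 was -0.56 (SE 0.21), at an edgeR adjusted p of 0.129 (0.0442 with the GC trend removed), and it was -0.11 within replicates 1 and 2 and -0.91 within replicates 3 and 4. TXNRD3, a thioredoxin-glutathione reductase, rose by 0.39 (SE 0.09), with counts that were not whole in 6 libraries, as did TXNIP, which binds thioredoxin (0.35, SE 0.08), named after its values were seen. Without NPY1R low replicate 3 the edgeR adjusted p of TXNIP was 0.0514.

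The falls included the enzymes of NADPH supply outside the pentose phosphate pathway, with 4 of 9 lower and 0 higher (44.4%, against 7.81% of all genes lower). IDH1 and IDH2, the cytosolic and mitochondrial NADP-linked isocitrate dehydrogenases, fell by 0.42 (SE 0.10) and 0.38 (SE 0.10) on the log2 scale. ME1, malic enzyme, had -0.29 (SE 0.06) and MTHFD2, a mitochondrial folate enzyme, had -0.27 (SE 0.06). Both are named after their values were seen. The calls of IDH1, IDH2 and MTHFD2 were each lost in 6 of the 8 fits that left out a library, and MTHFD2 also with 5 other TMM reference libraries, library totals (edgeR adjusted p 0.0578), upper-quartile factors (0.0955) and no filter (0.0565). With upper-quartile factors IDH1 (0.0655) and ME1 (0.0513) missed the threshold too, as did ME1 without NPY1R high replicate 4 (0.0637).

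The largest falls were of 2 oxidoreductases. AKR1B10, an aldo-keto reductase raised by NRF2 in many tissues, fell from 5.03 ± 1.25 to 1.06 ± 0.215 CPM (SD, n = 4 each) (log2 ratio -2.25, SE 0.23, edgeR adjusted p = 0.000166). It was the only 1 of 9 tested NRF2 target enzymes outside the members to pass (11.1%, against 13.6% of all tested genes). ALOX15B, a lipoxygenase that oxygenates polyunsaturated fatty acids, had 38.1, 36.0, 30.4 and 33.4 CPM in NPY1R high replicates 1 to 4. It had 131.9, 123.4, 113.4 and 92.4 CPM in NPY1R low replicates 1 to 4, far above the other group in every library. The log2 change of ALOX15B was -1.74 (SE 0.12), at an edgeR adjusted p of 1.22e-05. Both calls held in all 27 alternatives.

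Of 20 tested ferroptosis genes outside the members, 4 fell and 1 rose (25.0%, against 13.6% of all genes called). Besides ALOX15B, the falls were of SCD, which makes monounsaturated fatty acids (log2 change -0.69, SE 0.19), EMP1, a membrane protein (-0.60, SE 0.13), and ACSL3, which activates monounsaturated fatty acids (-0.46, SE 0.06). AGPS, a peroxisomal enzyme of ether lipid synthesis, rose by 0.36 (SE 0.08). SCD lost its call in 13 of 27 alternatives, among them 7 of the 8 fits that left out a library, 3 TMM references, upper-quartile factors (0.0631) and the filter of 10 counts in every library (0.0523), and ACSL3 kept it in all 27 alternatives. EMP1 reached an edgeR adjusted p of 0.0545 without NPY1R low replicate 1. MAFF, a small MAF partner of NRF2, had a log2 change of -0.75 (SE 0.20) at 24 to 78 counts per library. It was the 1 gene of 11 tested NRF2 partners and degraders to pass (9.09%, against 13.6% of all tested genes). The MAFF call held without NPY1R high replicate 3 or NPY1R low replicate 1 and was lost on leaving out any other library (edgeR adjusted p 0.0504 to 0.111), with the GC trend removed (0.0925), with upper-quartile factors (0.0534) and with no filter (0.0571).

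**Figure D4:**
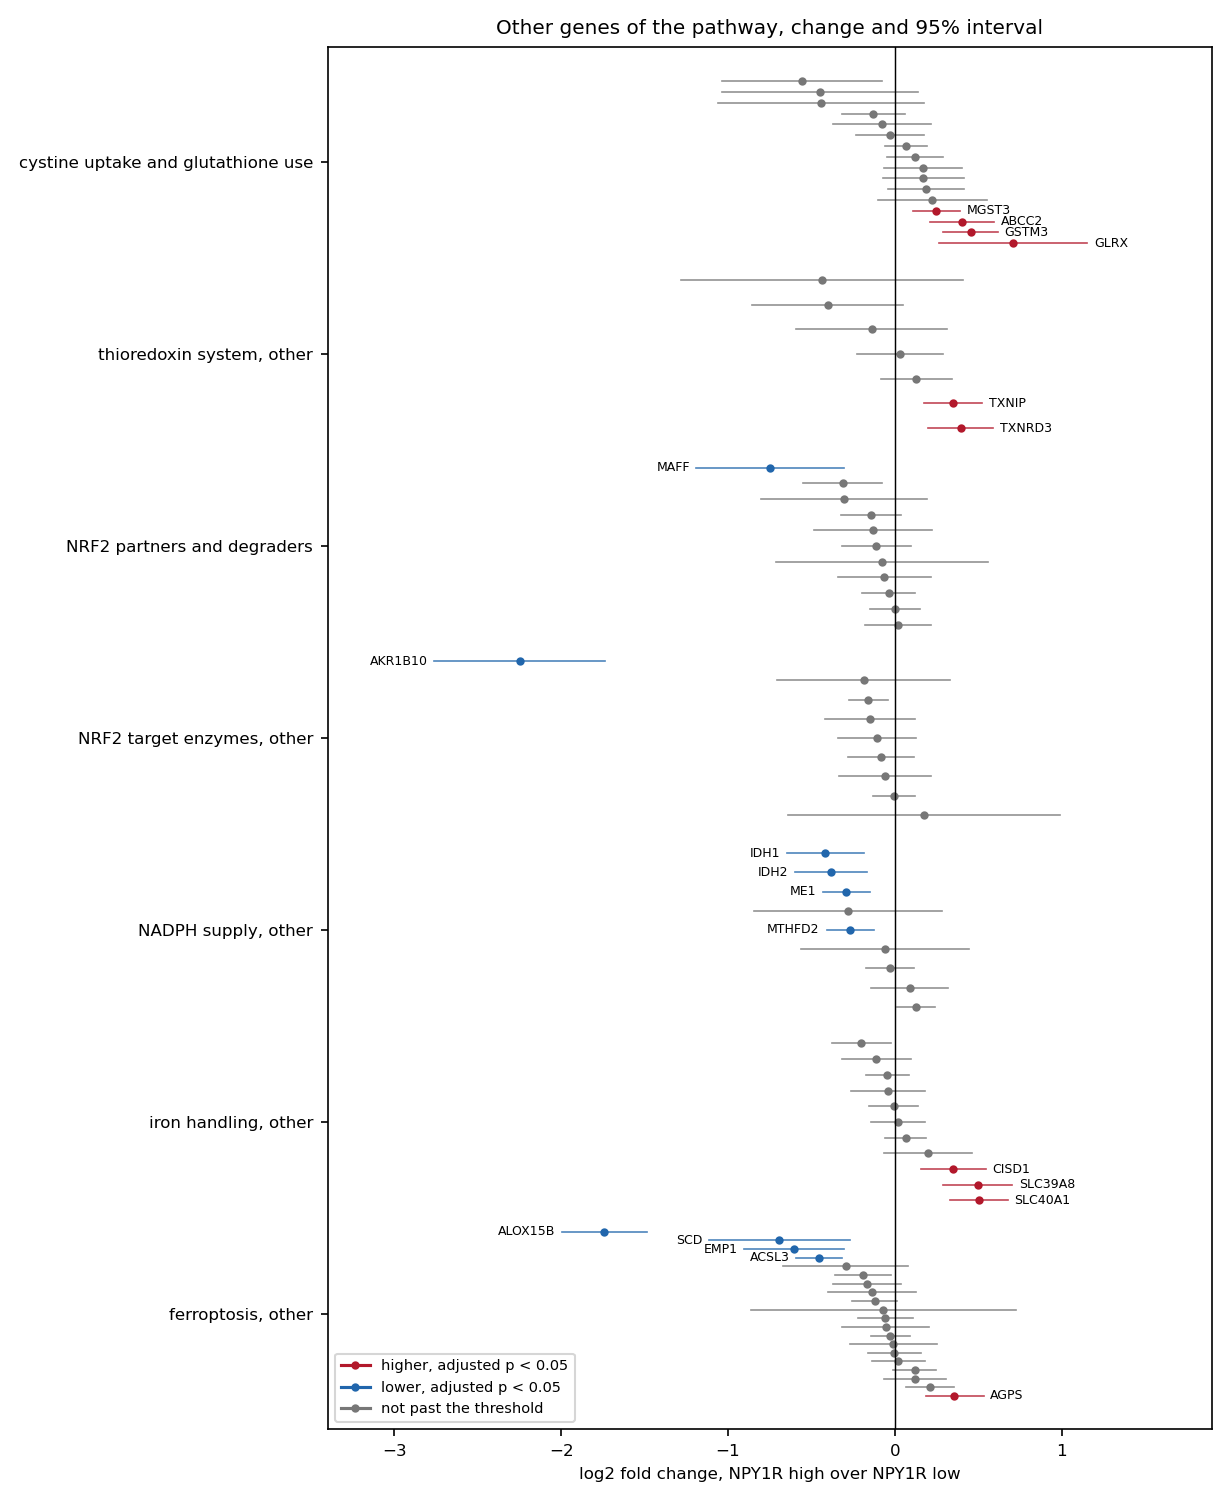
Log2 fold change (NPY1R high over NPY1R low, x axis) with 95% intervals of the 83 other tested genes of the pathway, by role (y axis), with names for those past an adjusted p of 0.05. AKR1B10 (-2.25) and ALOX15B (-1.74) lie farthest out, and the 10 genes higher all lie under 0.8.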

How the data were processed

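RNA was measured in 8 libraries. Per the submitters' processing notes, STAR 2.5.2, RSEM 1.3.0 and hg38 were used. The annotation is not given in the sources used here. The authors deposited expected counts by gene symbol, with no scaling across libraries. Between 7.97% and 8.76% of values per library were not whole, and they were rounded. The 8 single-library tables held the values of the series table (0 differed), 2 of them with genes in another order. The fit was planned for counts and used the rounded expected counts. Genes were filtered with filterByExpr (minimum count 10), scaled by TMM and tested with edgeR's quasi-likelihood test (R 4.3.3, edgeR 4.0.16, limma 3.58.1, DESeq2 1.42.0) without covariates, adjusted by Benjamini-Hochberg over 14008 genes. Standard errors are the log2 change divided by the root of F, and intervals use 9.85 degrees of freedom, the median of the fit. Log2 CPM used a prior count of 2. Transcript GC came from the longest coding transcript in GENCODE release 29 (94.1% of tested genes), and the offset is a spline with 5 degrees of freedom. Intervals and counts cover no error beyond these libraries.

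The procedure was tested on simulated data that had the same dispersion for all genes and no GC trend. That simulation does not cover the GC trends seen here or changes as small as those of TXNRD1 and SRXN1. The members and lists were chosen with earlier results of these data known. All members are named. Values per library are given for members past the threshold and for NFE2L2, KEAP1, GPX4, SLC7A11, NQO1 and FTH1. They are also given for CAT, ACSL4 and ALOX15B, which were chosen for this after their values were seen. Of the other pathway genes past the threshold the 8 largest changes in each direction are named, and 4 more as said. Alternatives were other scalings, TMM references, filters, tools, a replicate block, a GC offset, a term dividing replicates 1 and 2 from 3 and 4, and leaving out libraries. Leaving out both NPY1R high 3 and NPY1R low 4 was added after seeing the data.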

Additional observations from a re-analysis of the deposited data

Results flagged for a closer look

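Of 72 group values tested (36 genes in 2 groups), 6 had a library whose gap to the nearest of the others exceeded Dixon's critical value at the 95% level for 4 samples, where chance gives about 3.6. PRDX1 was 564.8 CPM in NPY1R high replicate 3, where the other NPY1R high libraries had 502.7 to 512.0. GCLC was 76.8 CPM in NPY1R low replicate 4 (others 68.9 to 69.5), and GSR was 366.6 CPM in the same library (others 320.1 to 326.8). FTL was 367.3 CPM in NPY1R high replicate 2 (others 391.2 to 396.2). NCOA4 was 256.5 CPM in NPY1R high replicate 4 (others 289.4 to 294.7) and 231.5 CPM in NPY1R low replicate 3 (others 260.5 to 266.3).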

How the results depend on the processing

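Over all tested genes, 810 were higher and 1094 lower (42.5% of calls higher). Library totals turned that share into 54.0%, upper-quartile factors into 56.3%, and it was 49.5% to 53.1% with the other TMM reference libraries. An adjusted p under 0.01 gave 470 higher and 562 lower, the GC offset 1807 lower, and a term dividing replicates 1 and 2 from 3 and 4 gave 1681 lower. Leaving out each library in turn gave 624 to 1068 higher and 625 to 1064 lower, the fewest lower without NPY1R high replicate 4.

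Of the 35 members, 1 was higher and 2 lower (8.57%, against 13.6% of all tested genes). The number higher was 2 with median-of-ratios factors, library totals, upper-quartile factors, no filter, the TMM references NPY1R high 1 and NPY1R low 3, and without both NPY1R high 3 and NPY1R low 4. It was 3 with the TMM references NPY1R low 1 and 2, with 10 counts in every library and with DESeq2, 4 with the GC offset and with the term dividing the replicates, and 0 with the TMM references NPY1R high 3 and 4 and at 0.01. The number lower was 1 with 10 counts in every library and at 0.01, and 5 with the GC offset. Leaving out each library in turn gave 0 to 4 higher and 0 to 3 lower, with 0 of each without NPY1R low replicate 1. Among the other pathway genes (10 higher, 10 lower), 0.01 left 3 higher and 3 lower, upper-quartile factors 5 lower, and the GC offset gave 16 lower, and leaving out each library gave 6 to 11 higher and 4 to 8 lower. The causes were not tested.

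Same-numbered libraries did not meet the criterion for pairing, with correlations of same-numbered deviations across genes of 0.339, 0.157, 0.0907 and 0.0178, and 2 of 8 libraries correlated best with their own number. With the replicate block 2 members were higher, TXNRD1 (adjusted p 0.0665), GLRX (0.0505) and MGST3 (0.0563) lost their calls, and ACSL4 (log2 1.23, adjusted p 0.00577) and CAT (0.0418) gained one. With the replicate block and GC offset 1328 genes were higher and 1996 lower, 4 members higher and 6 lower, and 18 other pathway genes lower, PRDX2 had 0.007, TFRC was lower (adjusted p 0.023) and MAFF lost its call (0.055). The share of members called was 11.4% with the replicate block, against 13.1% of all genes. With the replicate block and GC offset it was 28.6%, against 23.7% of all genes.

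Of 944 values of single members under 27 alternatives, 821 kept sign and call, 14 calls were lost, 42 were gained and 67 values changed sign, all of genes not past it. SOD1 moved from -0.00 to 0.025 with median-of-ratios factors, DESeq2 and the reference NPY1R high 3, 0.024, 0.03, 0.029 and 0.032 with the references NPY1R high 4, 1 and 2 and NPY1R low 3, 0.039 with library totals and the references NPY1R low 1 and 2, 0.04 with both filters, 0.053 with upper-quartile factors and 0.019 without both libraries. TALDO1 moved from -0.02 to 0.007 (median-of-ratios, DESeq2), 0.008 (references NPY1R high 3 and 4), 0.013 (NPY1R high 1 and 2), 0.014 (NPY1R low 3), 0.02 (NPY1R low 1 and 2, no filter), 0.021 (10 counts), 0.022 (library totals), 0.028 (GC offset), 0.033 (replicate block and GC offset) and 0.036 (upper quartile). FTH1 moved from -0.03 to 0 (median-of-ratios, DESeq2, reference NPY1R high 3), 0.005 and 0.006 (NPY1R high 2 and 1), 0.008 (NPY1R low 3), 0.014 (library totals, NPY1R low 1), 0.015 (NPY1R low 2, no filter), 0.016 (10 counts), 0.019 (without both libraries) and 0.029 (upper quartile), and GSR to 0.002 with the last. Leaving out each library gave ranges of -0.048 to 0.031 for FTH1, -0.362 to 0.063 for GPX1, -0.065 to 0.031 for GSR, -0.113 to 0.024 for GSS, -0.007 to 0.242 for KEAP1, -0.003 to 0.115 for PRDX1, -0.2 to 0.081 for PRDX2, -0.02 to 0.152 for PRDX5, -0.015 to 0.058 for SOD1 and -0.095 to 0.083 for TALDO1. The causes were not tested.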
